A study of Brassica rapa with 9 samples.

Results

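A set of 25 genes was read almost nowhere in non-transgenic Kimchi cabbage and in plants carrying the unmodified Arabidopsis phytochrome B, yet was read in every plant library carrying the G564E form of that receptor. The members were chosen from the 41020 gene IDs of the deposited tables on a normalised count, which is the read count divided by a size factor for the library (the median ratio to the geometric mean over the 27988 IDs with reads in all 9 libraries). A member had a normalised count of 10 or less in each of the 6 libraries of the low genotypes and of 60 or more in each of the 3 G564E libraries. The levels that chose the genes are therefore described below without a test.

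RNA was sequenced from whole seedlings of Brassica rapa cultivar Chiifu, 2 weeks old, kept in LD (as the labels abbreviate the light regime) on half-strength MS medium with 0.5% sucrose and without heat. The 3 genotypes had 3 libraries each. NT plants were not transgenic (their genotype label is wild type), AtPHYB plants carried phytochrome B of Arabidopsis thaliana, and G564E plants carried the same receptor with residue 564 changed from glycine to glutamate. No label names a loss of the plant's own phytochromes in any genotype, and the labels give neither the promoter of the transgene nor the number of lines. No label tells separate plants from pools or repeat libraries, so a p-value here measures library-to-library spread alone, which may be technical. The line, its insertion and any difference in growth follow the genotype and cannot be told apart from the receptor. The tissue label could not be checked against marker genes, because the files do not pair IDs with names.

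Phytochrome B is the main red light receptor of light-grown plants. Red light converts it to an active form that enters the nucleus and leads to the loss of PIF transcription factors, and far-red light or darkness returns it to the inactive form. Genes that are almost unread in seedlings are often ones that plants use in other organs, at other ages or under stress. The RefSeq gene table for assembly CAAS_Brap_v3.01 held none of the 25 IDs and 1 of all 41020, so no name or role is given to a member and no gene list could be filled. No sequence, length or position of these IDs was used. Levels are therefore compared between libraries for 1 ID at a time, and an order of IDs is an order of reads collected, not of transcripts.

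Libraries held 15262884 to 20998541 counts, with size factors of 0.795 to 1.24, so that 1 read gave a normalised count of 0.806 to 1.26. All pairs of replicates differed by more than counting noise, with a chi-square per degree of freedom of at least 10.8. G564E replicate 1 stood apart from its group. Its Spearman correlations with replicates 2 and 3 over all IDs were 0.956 and 0.955, whereas replicates 2 and 3 correlated at 0.986. Summed levels, ratios, the spread within G564E and the number of members are also given without it.

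The gap between the genotypes was wide for most members. The highest normalised count of any member in an NT or AtPHYB library was 9.37 and the lowest in a G564E library was 62.8. For 21 of the 25 genes the lowest G564E library was over 10 times the highest of the low libraries, and the median of this ratio was 21.2, with a range of 8.96 to 113. Summed over the 25 genes, the normalised count was 59.4 ± 3.45 in NT and 79.2 ± 23.4 in AtPHYB, and it was 9426 ± 3981 in G564E (mean ± SD over 3 libraries in each case). Without G564E replicate 1 it was 11641 ± 1508 in G564E (mean ± SD over 2 libraries). The members took 0.0338%, 0.0668% and 0.0810% of all counts in G564E replicates 1, 2 and 3. In whole seedlings, more cells that express a gene and more RNA of it per cell cannot be told apart.

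**Figure D1:**
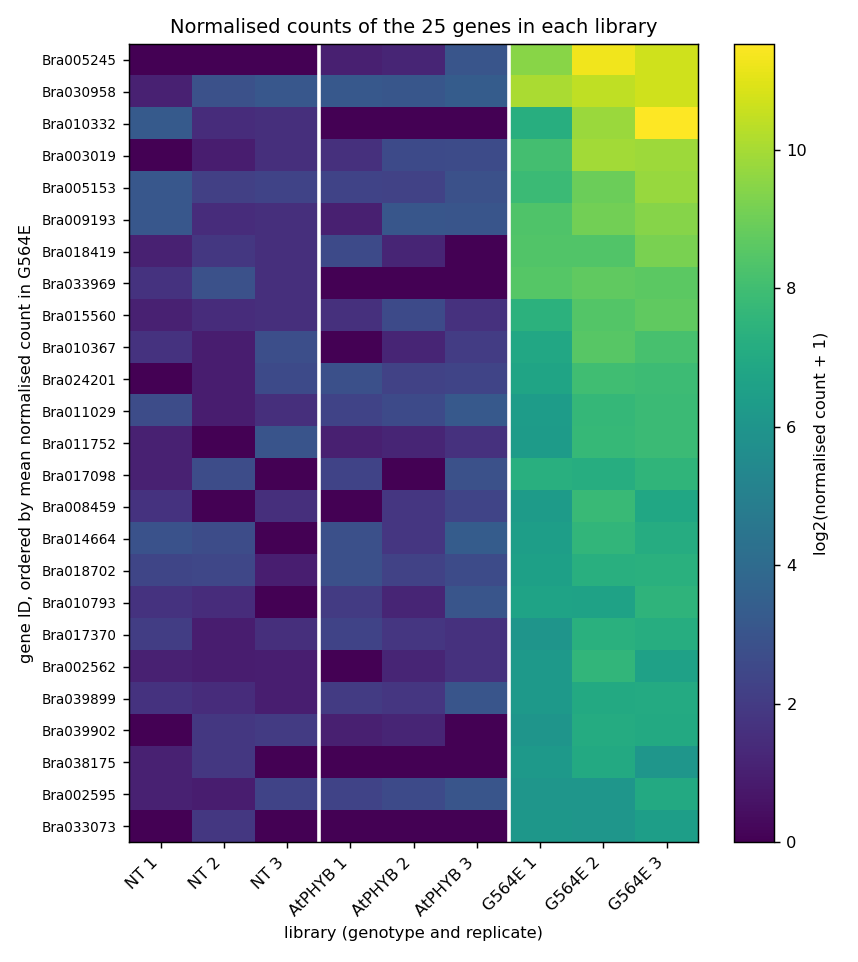
Normalised counts of the 25 genes, shown as log2(normalised count + 1) by colour, with genes in rows and the 9 libraries in columns. Rows are ordered by the mean in G564E, and no member exceeded 9.37 in an NT or AtPHYB library or fell below 62.8 in a G564E library.

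Most members gained modest levels and a few gained high ones. The mean normalised count in G564E was under 100 at 3 genes, between 100 and 200 at 11, between 200 and 500 at 5, between 500 and 1000 at 3 and over 1000 at 3. Bra005245, Bra030958 and Bra010332 were the 3 highest.

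Bra005245 had no read in the NT libraries and normalised counts of 1.01, 1.26 and 7.29 in AtPHYB replicates 1, 2 and 3. In G564E replicates 1, 2 and 3 it reached 707, 2484 and 1644. It was thus nearly unread in all 6 low libraries, with AtPHYB replicate 3 the highest of them. By summed reads it was at least 1560-fold higher in G564E than in NT, against a floor of 3 reads over the NT group. From 5212 and 9 reads, the ratio to AtPHYB was 469 (exact 95% counting interval 247 to 1030).

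Bra030958 was among the most even of the strongly raised genes. Its normalised counts were 1.09, 6.29 and 7.89 in NT, 8.11, 7.55 and 9.37 in AtPHYB, and 1064, 1378 and 1655 in G564E. This ID had reads in all 6 low libraries, unlike Bra005245. Its ratio to NT was 258 (exact 95% counting interval 159 to 452) and its ratio to AtPHYB was 162 (108 to 256). With Bra014664, at 9.37 in AtPHYB replicate 3 as well, it lay closest to the lower limit of the rule.

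Bra010332 was the least even member. It had no read in the AtPHYB libraries, 8.74, 1.80 and 1.97 in NT, and 151, 889 and 2960 in G564E. Its G564E libraries thus spanned a ratio of 19.5 between the lowest and the highest, all of them far above the low genotypes. On summed reads it was at least 1230-fold higher than in AtPHYB, a bound that leaves out this spread. That bound was 433-fold without G564E replicate 3 and 1850-fold without replicate 1.

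Bra003019 and Bra005153 came next in reads collected. Normalised counts of Bra003019 were 0, 0.899 and 1.97 in NT, 2.03, 5.03 and 5.21 in AtPHYB, and 267, 970 and 927 in G564E. Those of Bra005153 were 7.65, 3.6 and 3.95 in NT, 4.05, 3.77 and 6.25 in AtPHYB, and 233, 498 and 869 in G564E. In both, G564E replicate 1 was the lowest library of its group.

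Bra033969 and Bra017098 showed the smallest spread between G564E libraries, with ratios of highest to lowest of 1.17 and 1.30. Bra033969 stood at 2.18, 6.29 and 1.97 in NT, had no read in AtPHYB, and reached 359, 420 and 399 in G564E. Bra017098 stood at 1.09, 5.39 and 0 in NT, 4.05, 0 and 6.25 in AtPHYB, and 156, 144 and 187 in G564E. At these genes G564E replicate 1 lay close to its group.

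At the upper limit of the rule, Bra039902 and Bra017370 were just inside, with 62.8 and 63.7 in G564E replicate 1, and Bra012309 and Bra029172 just outside, both with 59.6 in that library. Bra029172 reached 374 and 1489 in replicates 2 and 3, so replicate 1 alone kept it out. At the lower limit, Bra020090 and Bra029204 were just outside, with highest normalised counts of 10.1 and 10.4 in AtPHYB replicates 1 and 3. The 15 members not described above or at these limits had means of 73.4 to 518 in G564E (median 139), of 0.899 to 3.81 in NT and of 0 to 5.81 in AtPHYB.

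In relation to all NT libraries, the ratio of summed reads in G564E ran from 34.1 (Bra014664) to at least 1560 (Bra005245), with a median of 96.8, and 11 of the 25 exceeded 100. In relation to AtPHYB it ran from 15.9 (Bra002595) to at least 1230 (Bra010332), with a median of 100 and 4 genes given as lower bounds. Without G564E replicate 1 the ratio to NT ran from 40.9 to at least 2050, with a median of 109, and the ratio to AtPHYB from 18.1 to at least 1850, with a median of 122. These comparisons share the G564E libraries. All 25 members passed the low-count filter, which they could do through G564E alone. All were called higher in G564E than in NT and than in AtPHYB by edgeR's quasi-likelihood test (p adjusted after Benjamini and Hochberg, threshold 0.05), where 13.8% and 18.4% of the 27967 tested IDs were called higher. Since the rule used these contrasts, the calls restate the choice. The adjusted p ran from 5.76e-05 to 0.00669 against NT and from 4.12e-05 to 0.004 against AtPHYB (edgeR). Bra010332 was not called in limma-voom, with an adjusted p of 0.0874 against NT and 0.0658 against AtPHYB.

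The rule sets a floor for the G564E libraries but not how they differ above it. The ratio of the highest to the lowest library was larger among members than among other expressed genes. Its median was 2.15 over the 25 members (quartiles 1.81 and 2.84) and 1.45 over all 19678 IDs with at least 60 in each G564E library (quartiles 1.23 and 1.85). Over the 17701 of these whose mean lay within the members' range it was 1.44. Other IDs that were low in NT and AtPHYB but read in G564E were more like the members. At the other 347 tested IDs with 10 or less in every NT and AtPHYB library, the median was 2.24. Like the members, they could pass the low-count filter through G564E alone, so they do not stand for near-silent genes at large. They held fewer reads in G564E than the members, with mean normalised counts of 22.2, 40.3 and 51.5 in replicates 1, 2 and 3. They include genes that replicate 1 alone kept out of the members. Between G564E replicates 2 and 3 alone, the medians were 1.30 at the members, 1.10 over the 19678 IDs and 1.38 at the 347, so most of the members' spread lay between replicate 1 and the others. A ratio over 2 was seen at 15 of the 25 members, at 3933 of the 19678 IDs and at 204 of the 347. These differences describe these libraries and were not tested.

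G564E replicate 1 was the lowest library at 19 of the 25 members, replicate 2 at 5 and replicate 3 at 1. Over the 19678 IDs, replicate 1 was the lowest at 53.3%. The median ratio of replicate 1 to the mean of replicates 2 and 3 was 0.514 at the members. It was 0.591 at the 347 IDs above and 0.904 over those 19678 IDs. Replicate 1 was the lowest library at 237 of the 347. Since the 347 include genes kept out of the members by a low replicate 1, their values are partly fixed by the choice. No member was highest in replicate 1, while 11 were highest in replicate 2 and 14 in replicate 3. Over the 19678 IDs, replicates 1, 2 and 3 were the highest at 7026, 6341 and 6311. Scaled by library size alone, replicate 1 was lowest at 19 members, and the median ratio to the other libraries was 0.548. The order of the members was nevertheless similar in the 3 libraries, with Spearman correlations across the 25 genes of 0.814, 0.859 and 0.873 for replicates 1 and 2, 1 and 3, and 2 and 3. The libraries of a pair share the genes' unequal lengths, which may raise such a correlation.

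**Figure D2:**
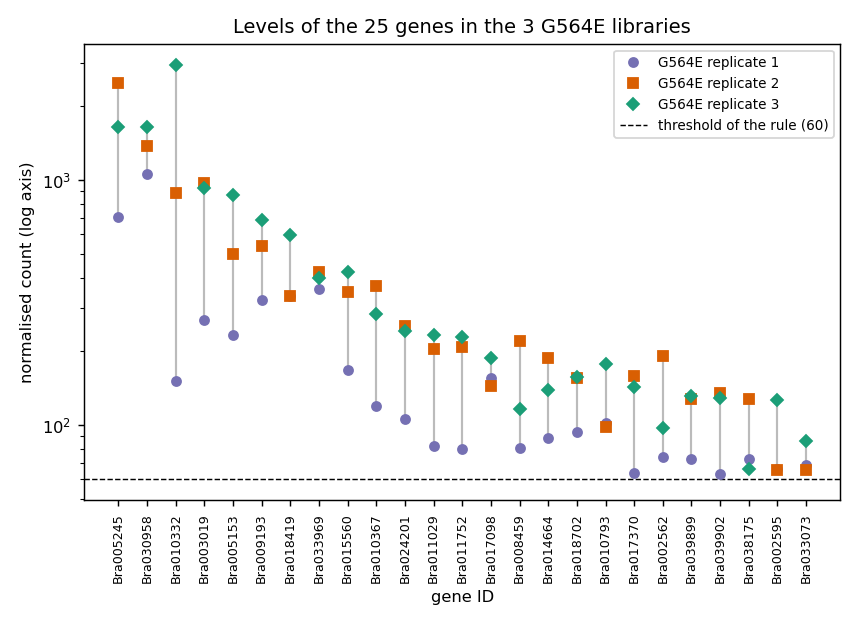
Normalised counts (log axis) of the 25 genes in G564E replicates 1, 2 and 3, with a vertical line from the lowest to the highest library of each gene and a dashed line at the threshold of 60. Replicate 1 is the lowest library at 19 genes, and Bra010332 spans from 151 to 2960.

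The genes that contributed most reads were not the same in each G564E library. Bra030958 held 21.3% of the members' summed normalised count in replicate 1, Bra005245 held 23.5% in replicate 2 and Bra010332 held 23.3% in replicate 3. The 3 leading IDs together held 42.6%, 45.7% and 49.3%.

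G564E replicate 1 also decided how many genes met the rule. When the high threshold was applied to replicates 2 and 3 alone, 69 genes qualified in place of 25. Of these, replicate 1 had 60 or more at 25 genes, between 10 and 60 at 42, and 10 or less at 2. The genes chosen without replicate 2 numbered 27, and those chosen without replicate 3 also numbered 27. In each choice the 25 genes at 60 or more in the library left out are the members by definition. Only the totals of 69, 27 and 27 are therefore a result. At the 44 genes that missed the rule in replicate 1 alone, the median normalised count was 33.4 in replicate 1, 103 in replicate 2 and 114 in replicate 3. Replicate 1 was still above all 6 low libraries at 43 of the 44. Apart from 2 genes at 10 or less there, these genes stood between the groups in replicate 1. The choice itself put replicate 1 under 60 and replicates 2 and 3 at 60 or more. It did not fix how far replicate 1 lay above the low libraries.

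The other libraries excluded few genes. NT replicate 1 alone kept out 6 genes, 2 of them with 60 or more there, and NT replicate 3 kept out 4, none above 13.8. AtPHYB replicates 1, 2 and 3 kept out 2, 1 and 1, none above 12.2, and NT replicate 2 kept out none.

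**Figure D3:**
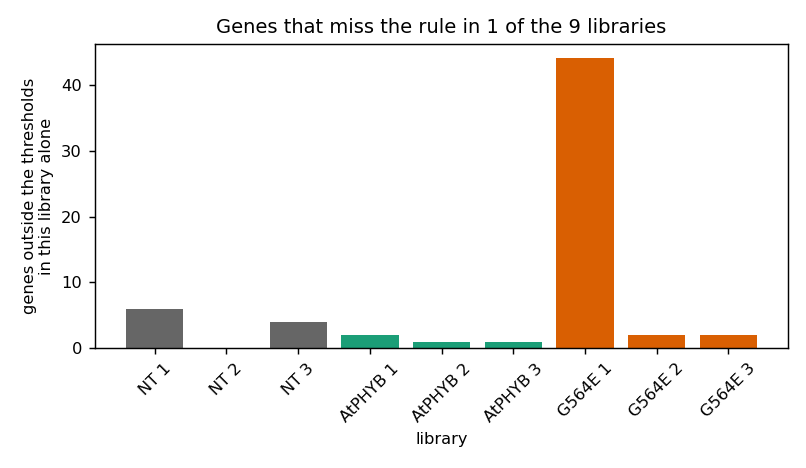
Number of genes outside the thresholds in exactly 1 of the 9 libraries, by the library in which they missed, with bars coloured by genotype. G564E replicate 1 accounts for 44 genes, whereas no other library accounts for more than 6.

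The same thresholds were turned to the other genotypes. Only 1 gene was at 60 or more in every NT library and at 10 or less elsewhere, and 2 genes were so in AtPHYB, against 25 in G564E. In the opposite direction, 14 genes were at 10 or less in every G564E library and at 60 or more in the other 6, and none was so in NT or in AtPHYB. G564E libraries differed from the rest over the whole transcriptome, with 27.0% of tested IDs called against NT and 35.0% against AtPHYB, and the counts by genotype stand beside that background without a test.

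When AtPHYB was left free, it showed how far the unmodified receptor's plants shared the gain. A total of 38 genes were at 10 or less in every NT library and at 60 or more in every G564E library. AtPHYB was at 10 or less in all its libraries at 25 of these 38, which are the members. At the other 13 its highest library exceeded 10, and at 9 of them that library stayed under 60. None had 60 or more in all AtPHYB libraries. The highest AtPHYB value was 133 in replicate 2, at Bra013652, which stood at 214, 121 and 116 in G564E and at 6.55, 4.50 and 1.97 in NT. When NT was left free and AtPHYB was held low, 72 genes qualified, and in 47 of them an NT library exceeded 10.

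The rule held NT and AtPHYB at 10 or less, and the members passed the low-count filter through G564E alone. A count of members called between NT and AtPHYB was therefore largely fixed beforehand and is given as a description. None of the 25 was called between AtPHYB and NT, where 0.190% of the 27967 tested IDs were called (edgeR quasi-likelihood test, adjusted p under 0.05). The lowest adjusted p among members was 0.154, at Bra033969. Without adjustment 1 member, Bra033969, passed a p of 0.05 in edgeR, against 13.6% of all tested IDs. DESeq2 called 1 member, again Bra033969 (adjusted p = 0.0381), where it called 3.44% of tested IDs, and limma-voom called none, where it called 0.168%. With so few reads a moderate difference was not detectable. Members had 0 to 16 reads over the 3 NT libraries (median 6) and 0 to 23 over the 3 AtPHYB libraries (median 9), against 250 to 5212 in G564E (median 571).

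The 2 highest and 2 lowest log2 fold changes of AtPHYB minus NT are described here, so both directions appear by choice. Bra038175 (-3.54) and Bra033073 (-3.15) were also lower in AtPHYB, by more than Bra003019 was higher (1.90). Bra033969 had 11 reads in NT and none in AtPHYB. Against a floor of 3 reads over the AtPHYB group, its ratio of NT to AtPHYB was 3.31. Bra010332 had 12 reads in NT, 8 of them in replicate 1, and none in AtPHYB. Its ratio of NT to AtPHYB was 3.61 on the same floor, with an adjusted p of 0.64 in edgeR. In contrast, Bra005245 had 9 reads in AtPHYB, 7 of them in replicate 3, and none in NT. Its ratio of AtPHYB to NT was 3.33 against a floor of 3 reads (edgeR adjusted p = 0.425). These floor ratios take the counts of 9 to 12 reads as exact, so they are not lower bounds. Bra003019 had 11 reads in AtPHYB and 3 in NT, and the ratio was 4.07 (exact 95% counting interval 1.07 to 22.7), with an adjusted p of 0.514 in edgeR. The AtPHYB libraries were all above NT at 5 members and all below at 2, which together is 7 of 25, against 26.6% of tested IDs whose AtPHYB and NT libraries did not overlap.

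No member was without a read in both low genotypes, and 9 had reads in all 6 low libraries. Bra005245 was the 1 member with no read in NT. The 4 members with no read in AtPHYB were Bra010332, Bra033969, Bra038175 and Bra033073, and each of these had 3 to 12 reads in NT. The members were thus nearly unread rather than unread at this depth. Whether these few reads came from the genes themselves was not tested.

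The summed normalised count of the members was 63.4, 57.5 and 57.2 in NT replicates 1, 2 and 3, and 65.9, 65.4 and 106 in AtPHYB. AtPHYB replicate 3 was higher than the other 5 low libraries, which lay close together. It was the highest of the 6 at 11 of the 25 members. The other 347 tested IDs low in NT and AtPHYB had a mean normalised count of 2.91 per ID in AtPHYB replicate 3. Their means were 2.80 and 2.25 in AtPHYB replicates 1 and 2 and 3.01 to 3.52 in NT. The members' means were 4.25, 2.63 and 2.62 in AtPHYB replicates 3, 1 and 2, and 2.29 to 2.53 in NT. Log2 fold changes of AtPHYB minus NT were positive at 17 of the 25 members and at 49.4% of all tested IDs, and at 14 members without AtPHYB replicate 3. The part of this library in that count was otherwise not tested.

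**Figure D4:**
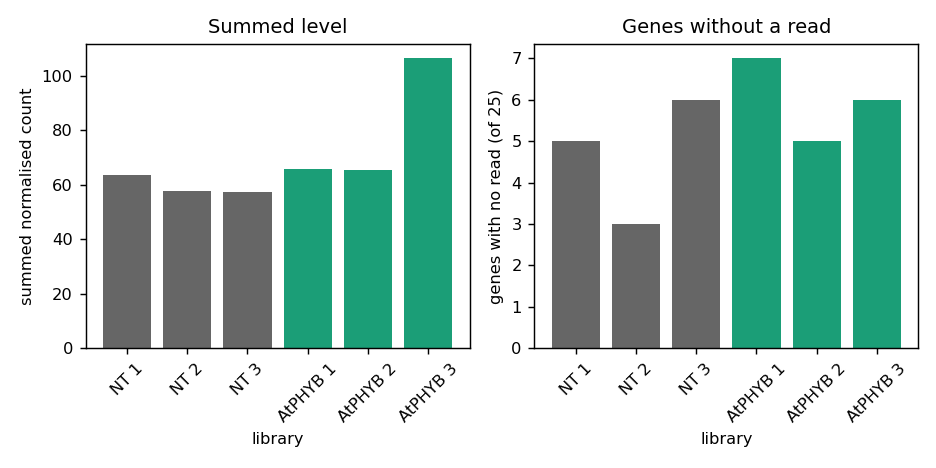
Left, summed normalised count of the 25 genes in each NT (grey) and AtPHYB (green) library. Right, number of the 25 genes with no read in each library; AtPHYB replicate 3 has the highest sum (106) although 6 of its genes have no read.

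The ID numbers of the members were scattered. No 2 members had consecutive numbers. Bra039899 and Bra039902 were the closest pair, 3 numbers apart, and no other member had another within 5. They rose to similar levels, with 72.5, 128 and 131 for Bra039899 and 62.8, 135 and 129 for Bra039902 in G564E replicates 1, 2 and 3. The IDs between them, Bra039900 and Bra039901, had no read in any library and 4 reads in all, respectively. The sources used here do not state whether neighbouring numbers are neighbouring genes.

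Among the 50 IDs numbered directly before or after a member, 34 were tested. Of these, 8 (23.5%) were called higher in G564E than in NT, against 13.8% of all tested IDs, and 4 were called lower, against 13.2% (edgeR, adjusted p under 0.05). The count of 8 fell to 5 when NT replicate 1, NT replicate 2 or G564E replicate 3 was left out. The share of all tested IDs called higher fell as well in these fits, to 7.8%, 9.08% and 9.86%. The count was 9 without G564E replicate 1, where 18% of all tested IDs were called higher. The excess over the background was not tested. Bra030959, next to Bra030958, had no read in the 6 low libraries and normalised counts of 14.5, 21.8 and 18.6 in G564E (edgeR adjusted p = 0.00681 against NT). Bra038174, next to Bra038175, stood at 6.55, 5.39 and 8.88 in NT and at 44.3, 115 and 130 in G564E (edgeR adjusted p = 0.00369). Bra030959 and Bra038174 were chosen after their values were seen. Bra030957, on the other side of Bra030958, stood at 104, 6.29 and 4.93 in NT, 5.07, 5.03 and 5.21 in AtPHYB, and 5.64, 51.9 and 67.8 in G564E. NT replicate 1 was far above the other NT libraries there, and G564E replicate 1 was at the level of the low libraries. It was called neither against NT (log2 fold change 0.13, edgeR adjusted p = 0.946) nor against AtPHYB (3.00, edgeR adjusted p = 0.106). Whether reads of adjoining or duplicated genes are shared between IDs was not tested.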

How the data were processed

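The deposited values are raw read counts per gene ID, 1 library per file. Per the submitters' processing notes, FastQC 0.11.8, Trimmomatic 0.39, TopHat2, HTSeq and edgeR were used; the sources used here give no settings, genome build, annotation or strand option. Per the labels' protocols, a stranded mRNA kit was used on total RNA after DNase. Groups were taken from the sample titles.

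Members were found in Python 3.11.15 by the rule in the opening. Models were fitted in R 4.3.3 with edgeR 4.0.16 (filterByExpr defaults, 27967 IDs, TMM, quasi-likelihood test, 1 mean per genotype over all 9 libraries, 2-sided, Benjamini-Hochberg over all tested IDs). DESeq2 1.42.0 and limma 3.58.1 (voom) were alternatives. The rule and the model were tested on simulated data. A fold against a group with no read used a floor of 3 reads over that group's libraries; counting intervals are exact 95% intervals of 2 summed counts. Intervals cover counting error only, since PCR copies are not independent molecules. A floor stands for the counting error of the group with no read, and the other group's count is taken as exact.

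The members and lists were chosen with earlier results of these data known. IDs named were the 2 with the highest G564E mean, the 2 most and 2 least even between G564E libraries, the 2 highest and 2 lowest fold changes of AtPHYB minus NT, and the 2 on each side of each threshold; other IDs were named after their values were seen. No member lacked reads in all 6 low libraries and none had consecutive numbers, so those parts of the naming rule named none. Deviations from group means correlated at 0.405, 0.306 and 0.116 between same-numbered AtPHYB and G564E libraries, which pairs these groups by the data and not by a label; for NT with AtPHYB they were -0.084 to 0.085, and for NT with G564E -0.172 to 0.019. Block fits on this number were alternatives.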

Additional observations from a re-analysis of the deposited data

How the results depend on the processing

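The 25 members numbered 25 with TMM scaling and 42 with library size only, 6 and 56 with low limits of 5 and 20, and 69 and 10 with high limits of 30 and 120. With NT alone held low they numbered 38 and with AtPHYB alone 72. Leaving out single libraries gave 25 to 69, the highest without G564E replicate 1. Every looser setting kept all 25. The median ratio between G564E libraries was 2.17 with TMM and 2.01 with library size only, and 1.30 to 2.13 with single G564E libraries left out (chosen after seeing the data), lowest without replicate 1.

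For AtPHYB minus NT, 53 IDs were called in all, 961 by DESeq2, 199 with the compared genotypes alone, 6 at an adjusted p under 0.01, 17 with the replicate block and 6 to 783 with single libraries left out. DESeq2 called 1 member, and every other fit that tested members called 0; with the compared genotypes alone no member passed the filter. For G564E minus NT, 7545 IDs became 3170 at an adjusted p under 0.01 and 4829 to 10702 when 1 library was left out. Under the same changes the 9777 IDs of G564E minus AtPHYB became 4684 and 6063 to 12878. With the replicate block they were 6655 and 9045, and it changed no call of a member. All 25 members were called in each of these fits except in limma-voom, which called 24. Log2 fold changes of AtPHYB minus NT changed sign at 6 of the 25 members in at least 1 alternative, in 12 of 375 values, none of them called. Among IDs described above these were Bra005153 (-0.08), at 0.019, 0.043 and 0.309 without AtPHYB replicates 1 and 2 and NT replicate 1 in a leave-one-out range of -0.343 to 0.309, and Bra017098 (0.63), at -0.049 without AtPHYB replicate 3 in a range of -0.049 to 2.509; the cause was not tested. The IDs numbered next to a member that were called higher than in NT were 5 to 11 of those tested. They numbered 11 with library size only and 5 with the replicate block, where 28% and 11.5% of all tested IDs were called higher. All these alternatives were chosen after seeing the data. The few reads of members in NT and AtPHYB limit the comparison of these genotypes.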
